A study of Bos taurus with 12 samples.

Results

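The 7 mast cell genes described here are CPA3, MCPT2, FCER1A, MS4A2, HDC, KIT and GATA2. They are read by 8 of the 26323 transcripts kept on a custom bovine Agilent array. Mast cells are resident immune cells of connective and mucosal tissues, known in the uterus for lying in the stroma and the muscle layer. They carry immunoglobulin E (IgE) on a high-affinity receptor, and on activation they release granules filled with histamine and with proteases bound to proteoglycan, followed by newly made prostaglandins and leukotrienes. The members cover that programme. CPA3 (carboxypeptidase A3) and MCPT2 (mast cell protease 2, of the chymase family) are granule proteases, FCER1A and MS4A2 are the alpha and beta chains of the IgE receptor, HDC (histidine decarboxylase) makes histamine, KIT is the receptor of the growth factor on which mast cells depend, and GATA2 is a transcription factor of their lineage.

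The endometrium (the lining of the uterus) was biopsied on Day 15 of a synchronised estrous cycle, between the caruncles and in the horn on the side of the corpus luteum, and the RNA of each animal was hybridized to 1 array. The 4 old females (OF, animals 0233, 0234, 0245 and 2258) were 13 to 14 years old and nulliparous, and the 4 young females (YF, animals 1069, 1070, 1072 and 1127) were 4 to 5 years old and primiparous. OF and YF are Holstein clones of a single donor cow, so they stand for 1 genotype, and age and parity go together in them. The 4 Contemporary cows (1068, 1128, 1129 and 1111) carry no age, parity, breed or genotype in the sources used here, and 1111 was left out of the comparisons because the submitters excluded it for a divergent phenotype. Its values are given as description.

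A level is the log2 processed intensity of a transcript (the mean of its probes) minus the 75th percentile of its array, so that 0 is the level of a spot at that percentile and a difference of 1 is a change by a factor of 2. The 75th percentile ranged from 968 to 1597 intensity units over the 12 arrays, and 71.6% to 74.9% of the spots on each were well above background by the scanner's own flag. Each slide carried animals of all groups, with 1 OF, 2 YF and the Contemporary cow 1111 on slide 1 and 3 OF, 2 YF and 3 Contemporary cows on slide 2. Without 1111, the Contemporary cows compared were all on slide 2, while OF and YF were on both slides. The 10 epithelial and 10 stromal marker genes that define the labelled tissue all passed the filter on dim probes, which asks that a probe exceed background in each animal of OF or in each of YF. The members were selected on earlier OF against YF results of these arrays, so that contrast is given for them as a description without a test.

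In the assembly UMD3.1, as the array's annotation gives it, CPA3 (ENSBTAT00000019982) spans chr1:120236686-120268817, FCER1A (ENSBTAT00000017127) chr3:10539988-10546195, MS4A2 (ENSBTAT00000026773) chr15:84497142-84504751, HDC (ENSBTAT00000013083) chr10:60140538-60162731, KIT (ENSBTAT00000003498) chr6:71796318-71917431 and GATA2 (ENSBTAT00000026265) chr22:60016985-60024586. MCPT2 is read by transcripts ENSBTAT00000052512 (chr21:35122225-35125000) and ENSBTAT00000011737 (chr21:35112322-35115054), which the array calls uncharacterized and which the study names MCPT2. Whether their probes also match other genes of the chymase family was not examined. Each transcript has 2 probes of 60 bases. The following stretches of 30 bases, read from the array files 5′ to 3′, are shown because the values of CPA3 and MCPT2 turn on these probes. Capitals mark the polyadenylation hexamer AATAAA in CPA3 and the differing base in MCPT2.
CPA3 probe 1, bases 31 to 60: tcatcatttcatgtgccaatatAATAAAaa
CPA3 probe 2, bases 31 to 60: ccaatgatccgtgtcaggagatctatcggg
MCPT2 probe 1 of both transcripts, bases 31 to 60: tactgaagttgaaggagaaagccaacctga
MCPT2 probe 2 of ENSBTAT00000052512, bases 31 to 60: aatccccagagcacaaaatctGcatttaag
MCPT2 probe 2 of ENSBTAT00000011737, bases 30 to 59: aatccccagagcacaaaatctAcatttaag
The hexamer was searched on the printed strand only and occurs in 7.97% of the 50968 different probe sequences. The first probes of the MCPT2 transcripts are the same 60 bases. The second probes are shifted by 1 base and differ in 1 of the 59 bases that align, G52A counted from the 5′ end of the ENSBTAT00000052512 probe. The transcripts therefore share their signal and count as 1 gene, for which ENSBTAT00000052512, with the higher mean signal, stands. The probes of HDC overlap by 46 bases, so they too are close to a repeated reading of 1 stretch, while no probes of the other members share a run of more than 7 bases within a transcript.

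Of the granule proteases, CPA3 was lower in every OF than in every YF. Its level was -4.21, -4.87, -4.57 and -4.25 in YF 1069, 1070, 1072 and 1127, against -5.67, -6.80, -6.07 and -6.00 in OF 0233, 0234, 0245 and 2258. The lowest YF lay 0.80 above the highest OF, and OF 0234 was lowest of all animals. The mean was -4.47 ± 0.31 in YF and -6.14 ± 0.48 in OF (SD, n = 4 each), a difference of -1.66 (SE 0.26), or 3.16-fold. Probe 1 was well above background on all 12 arrays, with a processed intensity of 149 to 225 in YF and 32.8 to 80.5 in OF. Probe 2 was dim, at 15.9 to 22.3 units in YF and 3.32 to 8.53 in OF, and well above background in 2 YF only. The fold includes probe 2, whose readings in OF were not told from background. The difference was -1.56 on the brighter probe alone.

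MCPT2 differed between OF and YF in the same direction on signals near background. ENSBTAT00000052512 had levels of -5.31, -4.63, -4.63 and -4.81 in YF 1069, 1070, 1072 and 1127, and of -6.46, -6.32, -7.06 and -6.98 in OF 0233, 0234, 0245 and 2258. All YF lay above all OF, but only 2 OF arrays (0233 and 0234) had a probe well above background, so the transcript passed the filter through YF alone. The difference of the means was -1.86 (SE 0.23), and no fold is given because the OF mean holds readings not told from background. ENSBTAT00000011737 had a difference of -1.31 (SE 0.38), and its groups overlapped, with OF 0233 at -5.48 and YF 1069 at -5.63. Without OF 0233 the differences were -1.94 and -1.59.

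The shared probe gives a repeated reading of the same sequence on each array. Spots of the same 60 bases differed on an array by a median of 0.30 (absolute log2 difference, 12 arrays), and by 1.56 in OF 0233, where 1 spot read -7.07 and the other -5.51. The next largest gap was 0.60, in Contemporary 1129. In OF 0233 the brighter spot alone was flagged as well above background. Over all 4 MCPT2 spots the mean was -4.94 ± 0.37 in YF and -6.52 ± 0.52 in OF (SD, n = 4 each), a difference of -1.58 with no overlap.

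**Figure D1:**
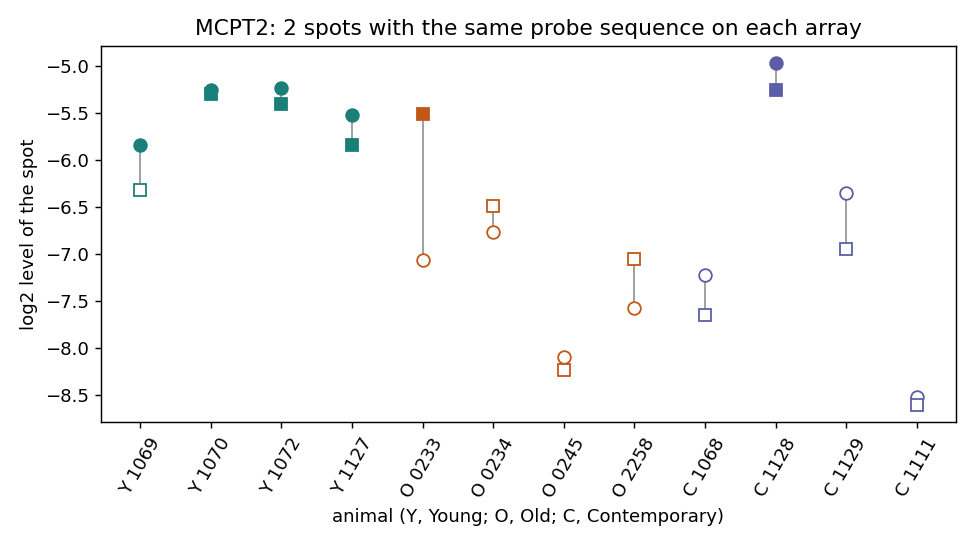
Log2 level of the 2 spots that carry the same MCPT2 probe on each of the 12 arrays (circles, ENSBTAT00000052512; squares, ENSBTAT00000011737; open symbols, not well above background), coloured by group. The spots lie within 0.60 of each other on every array except that of OF 0233, where they are 1.56 apart.

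The IgE receptor was measured through its alpha chain alone. FCER1A, which binds the antibody, had levels of -3.52, -3.84, -3.34 and -3.96 in YF 1069, 1070, 1072 and 1127 and of -4.32, -4.67, -4.47 and -6.16 in OF 0233, 0234, 0245 and 2258. All OF lay below all YF, by as little as 0.36 between the nearest animals, and OF 2258 was the lowest of all animals. The difference of the means was -1.24 (SE 0.39), or 2.36-fold, and it was -0.82 without OF 2258. MS4A2, the beta chain that amplifies the receptor's signal, was not well above background on any of the 12 arrays (levels of -8.78 to -7.41, processed intensities of at most 14.9 on the 11 arrays compared), so no level or difference is given for it.

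HDC, the enzyme that makes histamine, was lower in 3 of the 4 OF. YF 1069, 1070, 1072 and 1127 stood at -3.76, -4.16, -4.02 and -3.92, and OF 0233, 0234, 0245 and 2258 at -5.28, -4.65, -4.73 and -3.86. OF 2258 lay inside the range of YF, and the other OF lay below it. The mean difference was -0.66 (SE 0.28), or 1.58-fold, and -0.92 without OF 2258, when the groups no longer overlapped.

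KIT and GATA2 did not share this pattern. Other cells of the uterus express KIT and GATA2 too, and which cells gave the signal of any member was not tested. KIT had levels of -1.64, -2.04, -1.23 and -2.39 in YF 1069, 1070, 1072 and 1127 and of -1.35, -1.06, -1.89 and -1.89 in OF 0233, 0234, 0245 and 2258. The groups overlapped and the means differed by 0.28 (SE 0.30), OF being the higher. GATA2, with intensities of 7428 to 23570 over its probes on the 11 arrays compared, had levels of 3.30, 3.40, 3.40 and 3.25 in these YF and of 3.58, 3.60, 3.98 and 3.23 in these OF. Its difference was 0.26 (SE 0.17), with 3 of 4 OF above all YF.

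**Figure D2:**
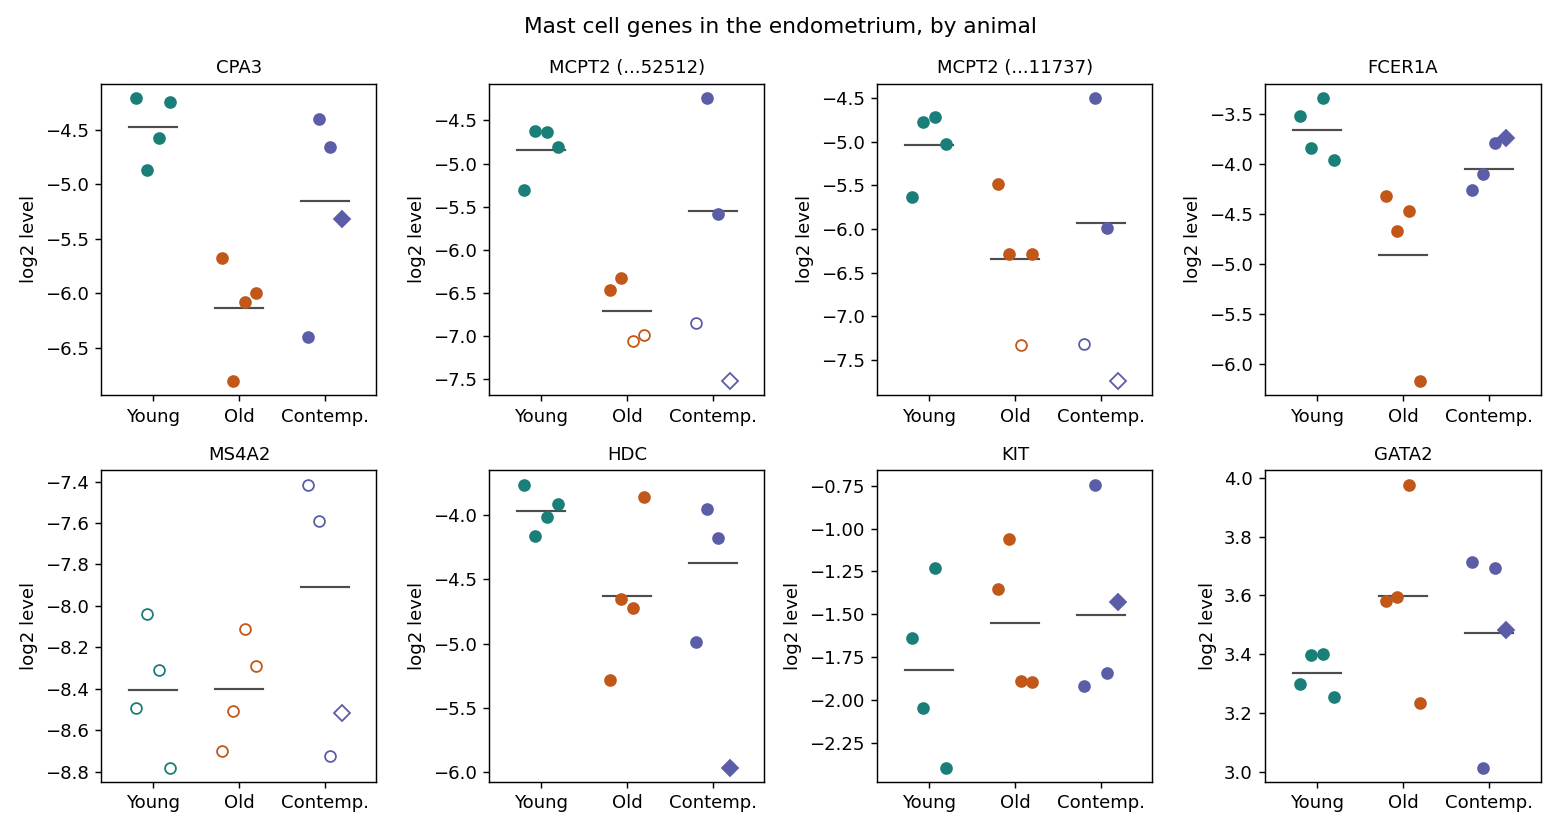
Log2 level (relative to the array's 75th percentile) of each member transcript in every animal, in YF, OF and Contemporary cows. Each point is 1 array, open symbols were not well above background, the diamond is Contemporary 1111 and lines are group means without it. CPA3, MCPT2 (ENSBTAT00000052512) and FCER1A separate OF from YF, HDC does so in 3 of 4 OF, and KIT and GATA2 overlap.

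In all, 3 of the 7 members (CPA3, MCPT2 and FCER1A) had every OF below every YF. Over the 19755 transcripts tested, 118 or 0.597% did so. The fold change rank ordering statistics (FCROS), the method of the study, called these 3 members lower in OF, as it did 543 transcripts or 2.06% of all. Since this contrast chose the members, nothing is read from either count. Within slides 1 and 2 the difference was -1.36 and -1.93 for CPA3, -2.43 and -1.53 for MCPT2 and -0.88 and -1.31 for FCER1A. Slide 1 held 1 OF and 2 YF, and slide 2 held 3 OF and 2 YF. Since every OF lay below every YF for these genes, the sign within a slide was fixed beforehand and is no check on the slides. With normexp background correction, which adds an offset of 50 units to every spot, the CPA3 difference fell to -0.51, MCPT2 to -0.41 and FCER1A to -0.50, the groups still did not overlap, and FCROS called 0 members.

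Smooth muscle genes stood apart in 2 OF biopsies. The mean deviation of 15 smooth muscle genes from their 12-array mean was 2.39 in OF 0234 and 4.01 in OF 2258, and between -1.38 and 0.19 in the other OF and in YF. The log2 of their summed level was 4.80 to 10.25 in OF and 4.70 to 6.24 in YF. OF 2258 had the lowest epithelial gene deviation as well, at -1.88. Without these 2 OF the difference was -1.40 for CPA3, -1.92 for MCPT2, -0.73 for FCER1A and -1.04 for HDC. HDC then no longer overlapped between the groups. CPA3, MCPT2 and FCER1A were separate before, and leaving out animals could not make them overlap.

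Other leukocyte genes did not separate OF from YF. The mean deviation of 17 general leukocyte genes ranged from -0.50 to 0.33 in OF and from -0.31 to 0.34 in YF, and the log2 of their summed level from 3.66 to 5.52 and from 4.82 to 5.91. PTPRC, the common leukocyte antigen CD45, differed by 0.19 (SE 0.35). Relative to the mean of the leukocyte genes in the same animal, CPA3 differed by -1.65, MCPT2 by -1.85 and FCER1A by -1.23. GZMB (granzyme B), a cytotoxic lymphocyte protease related to chymase, differed by -0.27 (SE 0.63). Basophils share CPA3, FCER1A and HDC with mast cells. Of the 11 basophil and eosinophil genes listed, 7 were not named on the array, so it says little about these cells. Of the 4 that were named, only CCR3, which differed by -0.12 (SE 0.20), and PRG3, at 0.02 (SE 1.01), were above the filter. In bulk tissue, fewer mast cells and less of these RNAs per cell cannot be told apart.

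The Contemporary cows provided arrays that had no part in choosing the members, although each comparison shares its OF or YF arrays with the choosing contrast. They spread over the ranges of both groups for the granule genes. CPA3 stood at -6.40 in Contemporary 1068, within the range of OF, and at -4.40 and -4.66 in 1128 and 1129, within that of YF. MCPT2 (ENSBTAT00000052512) was at -6.84 (not well above background), -4.24 and -5.58 in the same cows, and HDC at -4.98, -3.96 and -4.18. Contemporary 1068 was thus the lowest and 1128 the highest of the 3 for all of these genes. FCER1A varied less, at -4.26, -4.10 and -3.79. The excluded cow 1111 had CPA3 at -5.32, between OF and YF, MCPT2 at -7.52 (not well above background), HDC at -5.96, the lowest of the 12 animals, and FCER1A at -3.74, within YF. KIT was -1.92, -0.74 and -1.84 in 1068, 1128 and 1129, with 1128 the highest of all animals, and GATA2 was 3.71, 3.01 and 3.69, with 1128 the lowest.

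Against YF, no member passed in limma. CPA3 was -0.68 (SE 0.47, 95% interval -1.76 to 0.40), MCPT2 -0.71 (SE 0.54, -1.97 to 0.55), FCER1A -0.39 (SE 0.21, -0.87 to 0.10), HDC -0.41 (SE 0.26, -1.01 to 0.19), KIT 0.33 (SE 0.37, -0.54 to 1.19) and GATA2 0.14 (SE 0.21, -0.34 to 0.61), Contemporary minus YF, with 3 and 4 animals. The limma adjusted p was 0.9999 for each of the 6. At an adjusted p of 0.05, 0 (0%) of the 19993 transcripts were called, and 606 had an unadjusted p under 0.05. All 6 members overlapped between the groups, where 2.32% of the transcripts had every Contemporary cow below every YF, and FCROS called 0 members, where it called 2.29% of all transcripts lower. With an animal left out FCROS called 0 or 1 member, MCPT2 lower without Contemporary 1128 and MS4A2, on background readings, higher without 1129. The intervals of CPA3 and MCPT2 are wide enough to hold both no difference and one as large as that between OF and YF. The CPA3 difference was -0.05 without Contemporary 1068 and reached -1.05 without 1128, and that of MCPT2 was -0.07 and -1.37. The Contemporary cows compared were all on slide 2. With the slide as a block the difference was -0.92 for CPA3 and -0.50 for MCPT2.

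Against OF, CPA3 was higher in the Contemporary cows by 0.98 (SE 0.51, 95% interval -0.20 to 2.17, limma adjusted p = 0.912) and FCER1A by 0.85 (SE 0.44, -0.19 to 1.89, limma adjusted p = 0.912). FCER1A was the only member with separate groups, all 3 Contemporary cows lying above all 4 OF, as did 2.86% of the 19914 transcripts tested. The gap was narrow, with Contemporary 1068 at -4.26 and OF 0233 at -4.32. The exact two-sided permutation p of FCER1A was 0.114, where the smallest that 3 against 4 animals allow is 0.0286. MCPT2 was not well above background on every array of either group and entered no limma fit. Its mean was 1.15 higher in the Contemporary cows, with an exact permutation p of 0.114. HDC differed by 0.26 (SE 0.38), KIT by 0.05 (SE 0.35) and GATA2 by -0.12 (SE 0.25). In limma 0 transcripts (0%) passed and 911 had an unadjusted p under 0.05. FCROS called CPA3 and MCPT2 higher in the Contemporary cows, with 3.24% of all transcripts called so. It called 0 members after normexp correction and CPA3 alone when dim transcripts were left out. Leaving out an animal gave 1 to 3 calls, with MCPT2 alone without OF 0234, FCER1A alone without Contemporary 1128 and MS4A2 alone, on background readings, without 1129.

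**Figure D3:**
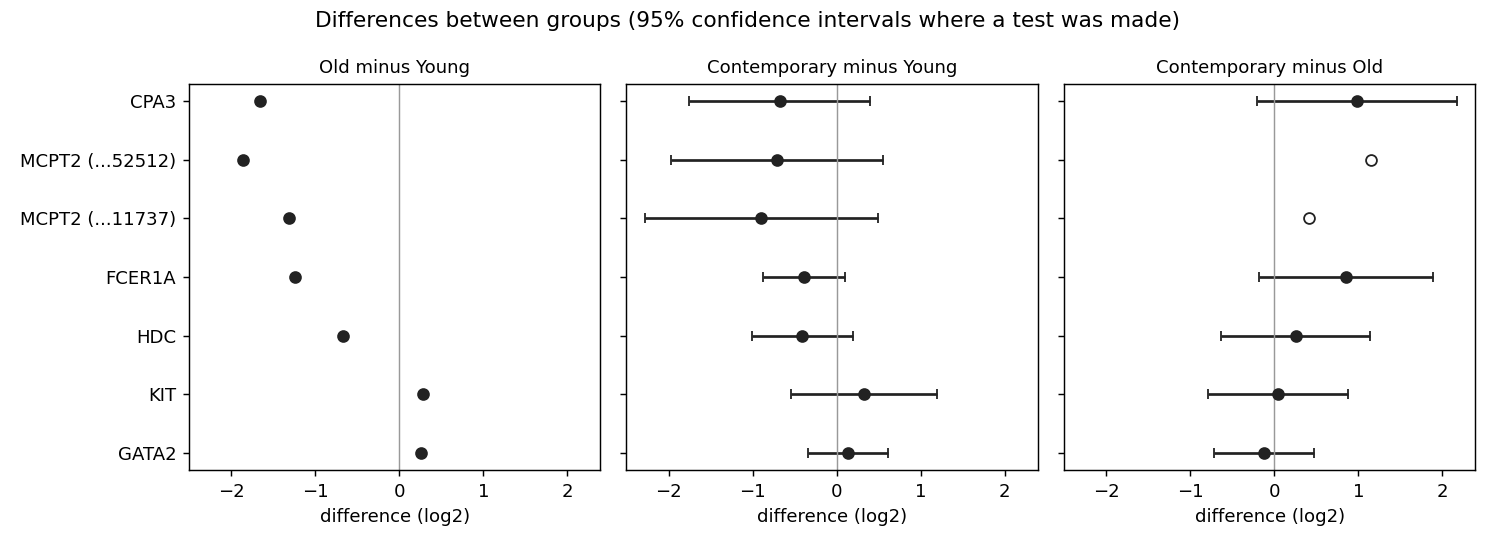
Difference of group means (log2) for each member transcript in OF minus YF (labelled Old minus Young), Contemporary minus YF and Contemporary minus OF. Bars are 95% confidence intervals from limma, drawn only where a test was made, and open points were not fitted. All bars cross 0, and the CPA3 difference is -1.66, -0.68 and 0.98 in the 3 panels.

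Within groups, where the difference between OF and YF is removed, no relation of a member with CPA3 passed the test over all 11 animals. In these animals, Pearson's r of the deviations from the group mean with those of CPA3 was 0.58 for MCPT2 (Spearman's rho 0.24, exact permutation p = 0.489 for r and 0.641 for rho), 0.48 for HDC (rho 0.48, exact p = 0.294 and 0.214) and 0.11 for FCER1A (rho 0.19, exact p = 0.711 and 0.548). It was 0.21 for KIT (rho 0.19, exact p = 0.741 and 0.696) and -0.44 for GATA2 (rho -0.50, exact p = 0.431 and 0.238). Adjusted over these 5 members, the permutation p-values were 0.741 for each r and 0.595 to 0.696 for rho, and with MS4A2, which had background readings alone, counted as a sixth they were 0.734 to 0.741 and 0.623 to 0.696. Without OF 0234 and Contemporary 1068, the animals farthest from the median of CPA3, r was 0.12 for MCPT2 and -0.04 for HDC. Without Contemporary 1068 alone it was -0.20 and -0.0080, so both relations rest on that animal.

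The named transcripts whose level was most like that of CPA3 over the 11 arrays were PTI (ENSBTAT00000023042, r = 0.95), HPGDS (r = 0.93), VCPKMT (r = 0.93), a second PTI transcript (ENSBTAT00000018539, r = 0.92) and TPSB2 (ENSBTAT00000009636, r = 0.91). PTI is a Kunitz-type trypsin inhibitor, the bovine protein known as aprotinin and long known from bovine mast cells. HPGDS makes prostaglandin D2, TPSB2 is tryptase beta, a protease of mast cell granules, and VCPKMT is a lysine methyltransferase. The r are a description, since the arrays share the difference between OF and YF that chose CPA3. Of 20081 transcripts the median r was -0.04 and 5 exceeded 0.9. MCPT2 (ENSBTAT00000052512) ranked 9th with r = 0.85, HDC 117th with 0.69, FCER1A 276th with 0.63, KIT 10469th with -0.06 and GATA2 19234th with -0.58.

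All OF lay below all YF for both PTI transcripts. ENSBTAT00000023042 had levels of 2.57, 2.74, 2.42 and 2.80 in YF 1069, 1070, 1072 and 1127, of 1.40, 0.67, 1.70 and 1.42 in OF 0233, 0234, 0245 and 2258, and of 1.37, 2.86 and 2.75 in Contemporary 1068, 1128 and 1129. OF 0234 and Contemporary 1068 were the lowest animals, as they were for CPA3. The second PTI transcript ran from -2.89 to -2.33 in YF and from -5.003 to -3.71 in OF. The transcripts named PTI lie at separate positions, chr13:74943621-74947760 and chr13:74996642-75000946, and their probes share no run of more than 7 bases. With group means removed, r with CPA3 was 0.88 and 0.82 for the PTI transcripts, 0.89 for HPGDS, 0.87 for TPSB2 and 0.84 for VCPKMT, over the same 11 animals that picked these transcripts for a high r, so that high values were in part built in. Without OF 0234 and Contemporary 1068 these r were -0.14 and 0.12 for the PTI transcripts, 0.80 for HPGDS, 0.09 for TPSB2 and 0.56 for VCPKMT, so those of PTI and TPSB2 rest on those animals.

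**Figure D4:**
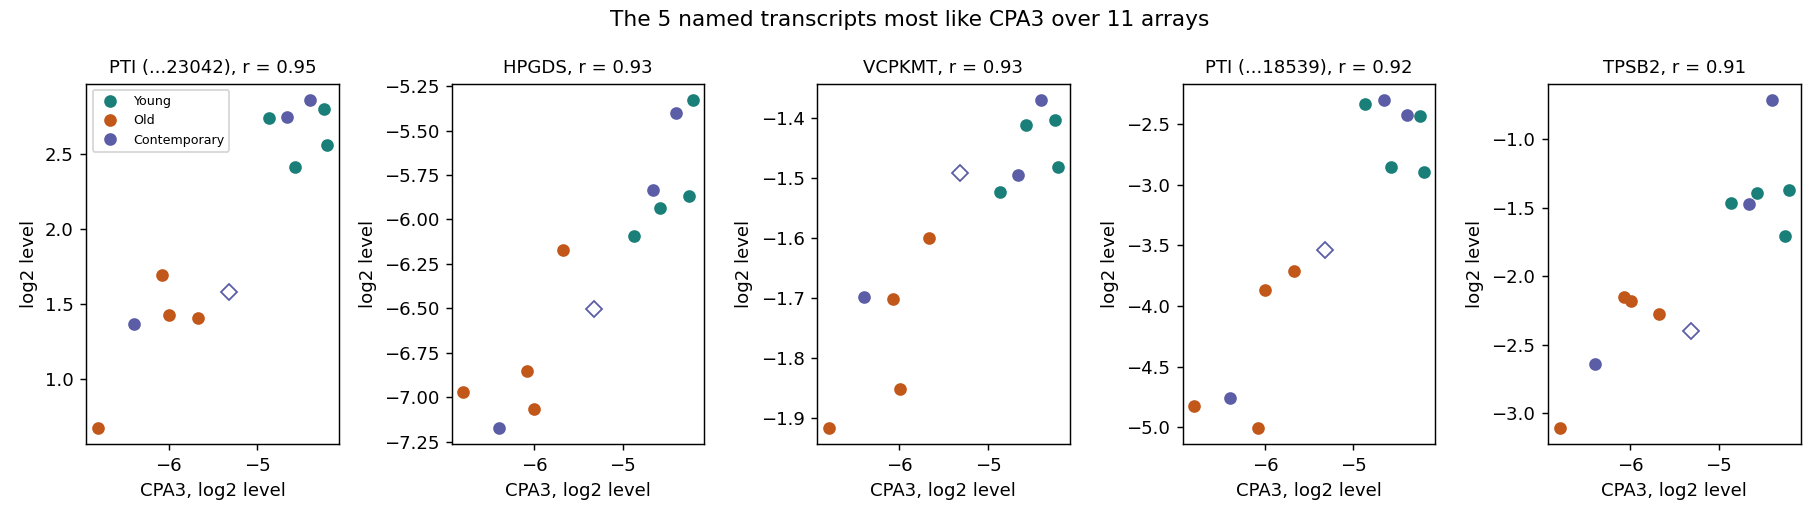
Log2 level of the 5 named transcripts with the highest Pearson r with CPA3 (vertical axis) against the log2 level of CPA3 (horizontal axis), 1 point per animal, coloured by group; the open diamond is Contemporary 1111, left out of r. OF and Contemporary 1068 lie low and YF, Contemporary 1128 and 1129 high on both axes in each panel, with r of 0.91 to 0.95.

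Besides the members, 70 further genes of mast cells were listed by role from general knowledge, of which 61 were named on the array and 46 were above the filter. Of these, 27 were lower and 19 higher in OF, with a median of -0.05 where that of all transcripts was 0.01. In limma 0 of the 46 (0%) passed an adjusted p of 0.05, as did 0 (0%) of all 19755 transcripts. At an unadjusted p of 0.05, 5 (10.9%) were lower and 1 (2.17%) higher in OF, against 0.987% and 1.43% of all transcripts. Every OF lay below every YF for 4 (8.70%), TPSB2, HPGDS, LTC4S and GATA1, against 0.597% of all, and above for 0, against 0.931%. For LTC4S the lowest YF was -1.46 and the highest OF -1.52, and for HPGDS they were -6.09 and -6.17, so these gaps were narrow. With normexp correction 2 of these genes, TPSB2 and LTC4S, still had separate groups. LTC4S overlapped under quantile normalization and under median centring, where BTK was separate. HPGDS overlapped on the brightest probe, where HRH4 was separate. FCROS called 4 of the 61 lower (TPSB2, HPGDS, GATA1 and KITLG) and 2 higher (IL4R and ADCYAP1, the latter well above background on 2 of the 12 arrays), against 2.06% and 2.88% of all. Those genes are named by these calls, and their share of the list was not tested. The list was drawn up with earlier results of these data known, so its shares are a description.

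Of the granule genes, TPSB2 (ENSBTAT00000037579, chr25:994572-996276, the brighter of the transcripts so named) was -1.23 ± 0.15 in YF and -2.03 ± 0.46 in OF (SD, n = 4 each), a difference of -0.80 (SE 0.23). The other transcript named TPSB2, at a separate position (chr25:987390-989247), differed by -0.95 (SE 0.23), also with separate groups. The probes of the pair share no run of more than 16 bases. A nearby transcript described as mast cell protease-11-like was well above background on 2 of the 12 arrays and was not tested. SRGN (serglycin, the granule proteoglycan) differed by 0.03 (SE 0.20) and NDST2, which sulfates heparin, by -0.25 (SE 0.18). No probe was named for the chymase gene CMA1 or for TPSAB1.

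Of the 7 eicosanoid enzymes, 6 had a difference below 0, as had 48.3% of all transcripts, 2 had every OF below every YF (28.6%, against 0.597% of all), and none passed limma's adjusted p. Differences below 0 were fewer elsewhere, in 6 of 11 IgE receptor, 6 of 10 transcription factor and 3 of 5 histamine genes. They were 2 of 3 for granule genes, 2 of 5 for growth factors and 2 of 5 for surface genes. Among these lists, only granule genes (TPSB2) and transcription factors (GATA1) held a separate gene. No list was tested as a set. HPGDS was -5.81 ± 0.33 in YF and -6.77 ± 0.40 in OF (SD, n = 4 each), a difference of -0.96 (SE 0.25). LTC4S, which makes leukotriene C4, was -1.22 ± 0.32 and -1.79 ± 0.34, a difference of -0.57 (SE 0.23). ALOX5 and ALOX5AP, which start leukotriene synthesis, differed by -0.43 (SE 0.21) and -0.47 (SE 0.21) with overlapping groups. PLA2G4A, which frees arachidonic acid, differed by -0.56 (SE 0.52), and PTGS1 was 0.42 higher (SE 0.33). PTGS2, counted among the 6 below 0, differed by only -0.02 (SE 0.59).

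Of the transcription factors, GATA1, which acts with GATA2 in mast cell and erythroid lineages, was -5.93 ± 0.35 in YF and -6.87 ± 0.25 in OF (SD, n = 4 each), a difference of -0.94 (SE 0.21) without overlap. MITF, the factor downstream of KIT, differed by -0.29 (SE 0.21), LMO2 by -0.09 (SE 0.17) and STAT5B by 0.36 (SE 0.41). KITLG, the ligand of KIT, differed by -0.74 (SE 0.40) and IL4R, a receptor chain for interleukin 4, by 0.66 (SE 0.23), both with overlapping groups, while CSF1R differed by 0.08 (SE 0.13).

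Of the 11 genes of IgE receptor signalling above the filter, 6 were lower and 5 higher in OF, with a median of -0.01, and 0 had separate groups. The genes named here are among the lower ones. BTK, a kinase below the receptor, differed by -0.55 (SE 0.18), the adaptor LAT by -0.50 (SE 0.37), and FCER1G, the gamma chain shared with other receptors, by -0.14 (SE 0.23). HRH4, a histamine receptor, differed by -0.85 (SE 0.47) and HRH1 by -0.27 (SE 0.25), while SLC18A2, which loads histamine into granules, differed by 0.02 (SE 0.64). Of the surface genes, CD63 of the granule membrane differed by -0.08 (SE 0.12), CD9 by 0.17 (SE 0.34) and SLC45A3 by -0.29 (SE 0.35). IL1RL1, the receptor of interleukin 33, and MRGPRX2, the receptor for IgE-independent activation, were well above background on 1 and 2 of the 12 arrays and were not tested.

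**Figure D5:**
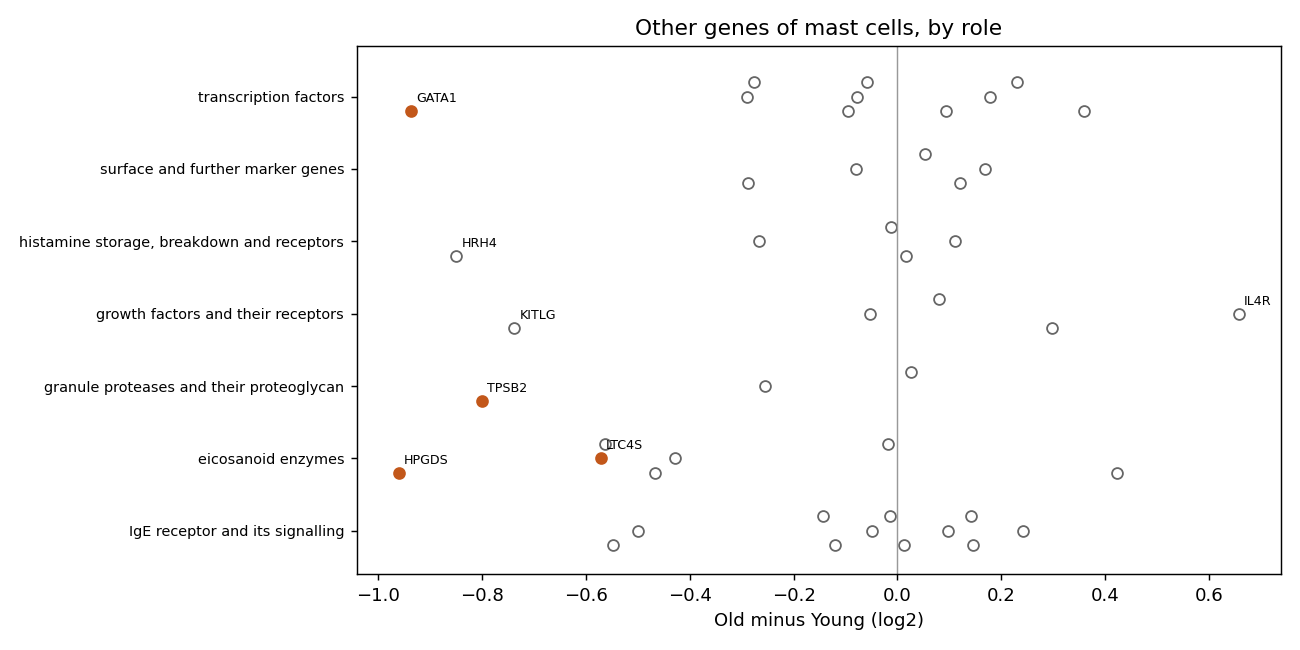
Difference of group means, Old minus Young (log2), for the 46 further mast cell genes above the filter, grouped by role, 1 point per gene; vertical offsets only separate points. Filled points are the 4 genes with every OF below every YF (GATA1, HPGDS, LTC4S and TPSB2), and genes with a difference over 0.6 in size are named as well.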

How the data were processed

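Endometrial RNA of 12 animals was measured in 1 colour (Cy3). The authors deposited the Feature Extraction (version 10.7.3.1) files, whose processed intensity of a spot has its background removed by that software but is not normalized across arrays. Mean and background intensities of the same deposited files entered 1 alternative. The log2 was taken, the 75th percentile over the 61549 non-control spots was subtracted, the 1319 controls and 66 probes that were flagged as outliers somewhere were dropped, and the 61333 probes kept were averaged by transcript. The number of arrays limits the precision.

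Comparisons used limma 3.58.1 under R 4.3.3 (two-sided, Benjamini-Hochberg adjustment at 0.05), for transcripts that had a probe above background, by the scanner's flag, in each animal of at least 1 of the groups compared. FCROS was coded from its published description, with a share of 0.25 of the ranks trimmed at each end, f-values beyond 0.025 and 0.975 and a fold of 1.5, on all transcripts. Correlations were tested by all 3456 permutations of animals within groups. Limma and FCROS were also run on simulated arrays with independent noise and 200 transcripts changed by 2 (log2). That run checked the limma estimates for bias. It counted no false FCROS calls, so it says nothing on how many FCROS calls are false. Symbols came from the array, from RefSeq (TPSB2 among others) and, for 836 transcripts with CPA3, MCPT2 and FCER1A among them, from the study's list. A gene with several transcripts is given by the one with the highest mean signal.

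Named are the members, in each list of further mast cell genes the gene with the highest level and the 2 with the largest differences, every gene called or not overlapping, and the 5 transcripts most like CPA3. SRGN, MITF, ALOX5, ALOX5AP, PTGS1, PTGS2, FCER1G, IL1RL1 and MRGPRX2 were added for their roles after their values were seen, as were PTPRC, GZMB, CCR3 and PRG3. The members and the lists were chosen with earlier results of these data known. The alternatives were quantile normalization, normexp (offset 50), median centring, the brightest probe, no filter, slide as a block, a fit of all groups together, Contemporary 1111 included and each animal left out. Those added after seeing the data were averaging only probes above the filter, leaving out OF 0234 and 2258, scaling to leukocyte genes, leaving dim transcripts out of FCROS, and leaving MS4A2 out of the adjustment of the correlations. Lists of neutrophil, macrophage and endothelial genes were scored too. The mean deviations of neutrophil genes were -0.43 to 0.26 in OF and -0.66 to 0.30 in YF, those of macrophage genes -0.29 to -0.04 and -0.17 to 0.14, those of endothelial genes -0.17 to 0.11 and -0.74 to 0.02, those of stromal genes -0.54 to 0.48 and -0.41 to 0.70, those of cytotoxic lymphocyte genes -0.49 to 0.66 and -0.33 to 0.34, and those of the 2 basophil and eosinophil genes -1.03 to 1.25 and -0.14 to 0.84.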

Additional observations from a re-analysis of the deposited data

How the results depend on the processing

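The 3 members with every OF below every YF were 3 or 4 under all 18 alternatives, but most of these could not lower the count. It uses the levels alone, so the slide block, the joint fit and no filter leave it unchanged. Leaving out animals can only keep or raise it. It was 3 under each setting that could lower it, namely the other normalizations, normexp, the brightest probe, only probes above the filter and scaling to leukocyte genes. In limma 0 members passed against the Contemporary cows under any of the alternatives run, while FCROS called 0 or 1 against YF and 0 to 3 against OF. With normexp correction, which raises every spot by an offset of 50 units (the processed intensity of MCPT2 spots in OF was 30.6 at most), 2 other mast cell genes had separate groups and FCROS called 548 transcripts between OF and YF, 399 between Contemporary cows and YF and 843 between Contemporary cows and OF, in place of 1300, 1113 and 1422. Leaving out an animal gave 4 to 6 other mast cell genes with separate groups, a count that it can only keep or raise. It gave 1190 to 1555, 914 to 1327 and 976 to 1449 FCROS calls. Small differences changed sign in Contemporary minus OF, KIT from 0.05 to -0.066 with the slide as a block and to -0.078 relative to leukocyte genes, GATA2 from -0.12 to 0.0034 with the block, and HDC from 0.26 to -0.14 with Contemporary 1111. With an animal left out they ran from -0.33 to 0.25 for KIT and from -0.24 to 0.11 for GATA2, and KIT against YF from -0.053 to 0.53. The within-group r with CPA3 ran, with an animal left out, from -0.20 to 0.76 for MCPT2, from -0.045 to 0.47 for FCER1A, from -0.0080 to 0.83 for HDC and from -0.16 to 0.45 for KIT. The lowest values of MCPT2, FCER1A and HDC came without Contemporary 1068, and that of HDC without OF 0233 (0.83) had an exact permutation p of 0.0081. That of FCER1A was -0.12 after normexp. The causes were not tested. No paired analysis was possible because the animal numbers of the groups do not overlap.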
